A study of Mus musculus with 21 samples.

Results

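The genes described here are 46 members of the nuclear hormone receptor family, taken from a list of family genes by their symbols and followed in SGNs (spiral ganglion neurons) at 5 ages, in HCs (hair cells) and in cochlear glia. They are 46 of the 52550 genes of the deposited count table. The list was drawn up by family and not by a measured value, but with earlier results of these data known.

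Nuclear hormone receptors are transcription factors that carry a zinc finger DNA-binding domain and a domain that can hold a small lipophilic ligand. Many pair with an RXR, bind repeats or single copies of the hexamer AGGTCA, recruit corepressors when empty and coactivators when a ligand is bound. Others are called orphan receptors because they act without a known hormone, among them the estrogen-related receptors, which work with the coactivators of the PGC-1 group on genes of mitochondrial metabolism. In the inner ear the family is known above all for thyroid hormone, whose receptors are needed for the onset of hearing.

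RNA was sequenced from 21 libraries in 7 groups of 3. SGNs came from embryos at E15.5 and from pups and young mice at P1, P8, P14 and P30, all carrying ShhCre/+ and Rosa26-CAG-loxp-stop-loxp-tdTomato/+, a red fluorescent reporter that Cre switches on, and were picked by hand, with 69 to 195 cells per library. HCs came from cochlear and vestibular organs at P12 of Atoh1-CreER+ mice that carried the reporter allele and received tamoxifen at P0 and P1, with about 1200 cells per library. Glia were picked by hand at P8, from the region of the SGNs only, of vGlut3-iCreER/+ mice that carried the reporter and received tamoxifen at P2 and P3, with 86 to 125 cells per library. The strain is given as C57BL/6 in every group, and all groups carried the tdTomato reporter allele. The labels describe the HCs as picked by hand while the study's methods describe sorting of fluorescent cells. Each cell type thus differed from the others in its Cre driver as well, and HCs and glia were each taken at a single age. Nothing says whether replicates came from separate animals, so the p-values measure only the spread between these libraries, which may be technical.

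Totals ran from 10368240 to 37287489 counts per library, with a median of 20384100. Levels are given as RPKM, counts scaled to the length of the gene and to the library total, on totals adjusted with TMM factors. The 6 SGN markers, *Slc17a7*, *Tubb3* and *Prph* among them, summed to 295 to 673 RPKM in the 15 SGN libraries, against 1.59 to 3.51 in HCs and 7.44 to 79.1 in glia. The highest of the glia values was that of library 1. Hair cell markers summed to 809 to 847 RPKM in HCs and to 104 at most in SGNs, and 5 glia markers summed to 798 to 1244 in glia and to 91.6 at most in SGNs. The labelled cell types thus carried their markers. Transcripts of other cells were present too. Schwann cell myelin genes reached 626 to 1039 RPKM in the P8 SGNs, against 7.97 to 185 at P30 and 6004 to 8345 in glia. Supporting cell and epithelial genes summed to 225 to 232 RPKM in HCs, 19.1 to 138 in glia and 130 at most in SGNs. Connective tissue genes summed to 217 to 375 RPKM in glia, 28.1 to 30.4 in HCs and 122.9 at most in SGNs, and blood and endothelial genes to 89.1 at most, in an SGN library. Their part in the differences below was not tested except where a value is given. In bulk samples, fewer cells of a type and less RNA per cell cannot be told apart.

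Of the 46 receptor genes, 45 had more than 3 counts in at least 1 library and 25 had more than 3 in each of the 21 libraries. *Nr0b1* had no count in any library. A mean of at least 10 RPKM in some group was reached by 15 receptors, and 13 stayed under 1 RPKM in every group. The leading receptor differed between cell types. In SGNs it was *Esrrg* at all 5 ages, with *Thra* or *Nr1d2* among the next, and in glia it was *Nr4a1*. In HCs *Rxra*, *Rorb* and *Nr4a1* lay close together, with means of 32.1, 30.5 and 29.2 RPKM. Summed over the family, the E15.5 SGNs had 190 ± 5.39 RPKM, the P1 SGNs 237 ± 29.5, the P8 SGNs 246 ± 35.2, the P14 SGNs 239 ± 27.2, the P30 SGNs 245 ± 20.2, HCs 238 ± 2.88 and glia 720 ± 75.1 (SD, n = 3 each). *Nr4a1* alone gave 433 RPKM of the glial sum. SGN ages made up 5 of the 7 groups and so had the most chances to hold the highest group mean. It fell in SGNs for 22 receptors, in glia for 15 and in HCs for 8. This split depends on the scale. In TPM, which shares out each library over all its genes with no TMM factor, 21 receptors had their highest mean in HCs and 6 in glia, and 1 RPKM corresponded to between 0.802 and 3.76 TPM depending on the library, with a median of 3.65 in HCs.

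**Figure D1:**
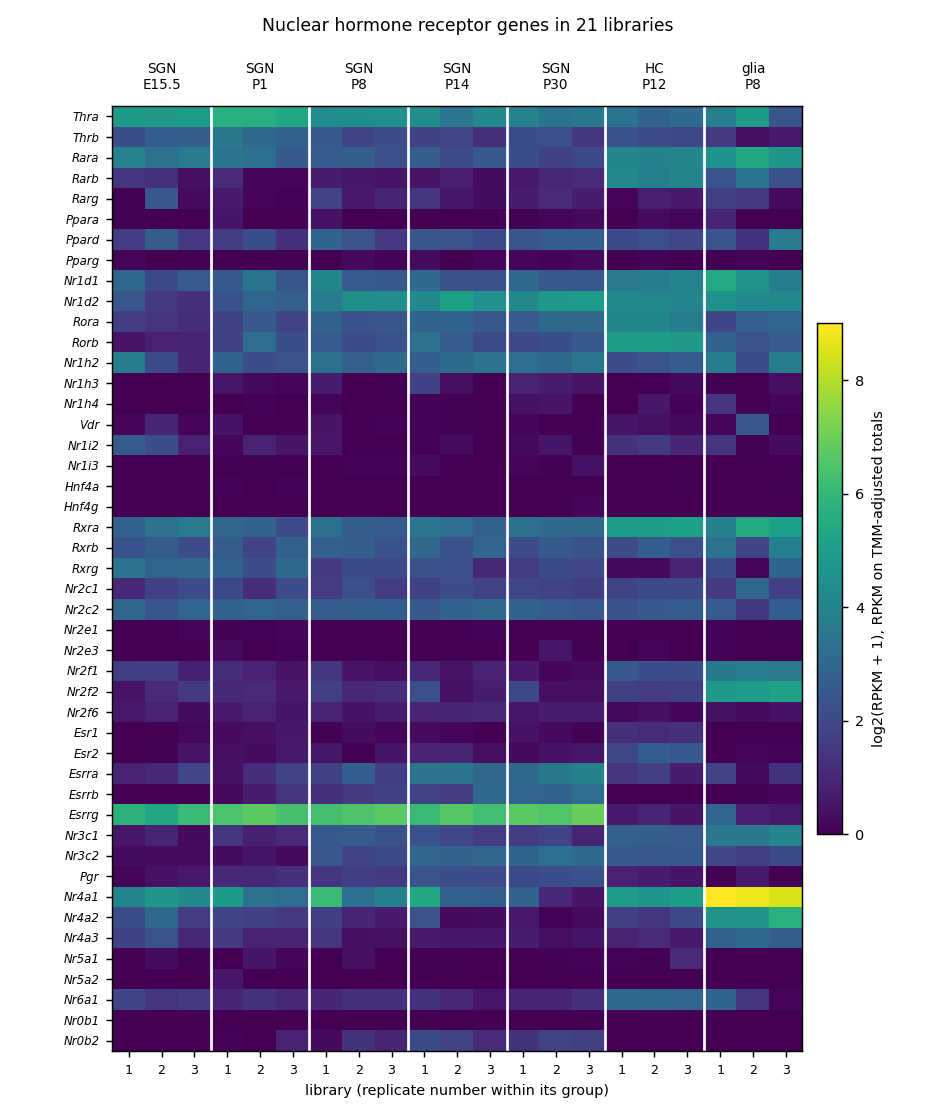
Level of the 46 receptor genes (rows, ordered by subfamily) in the 21 libraries (columns, 3 per group), coloured by log2(RPKM + 1) with RPKM on TMM-adjusted totals. *Esrrg* is bright in the 15 SGN libraries and dark in HCs and glia, and *Nr4a1* is brightest in the 3 glial libraries.

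The receptors were tested between neighboring SGN ages, between the first and last age, and between cell types. A receptor was counted as changed between ages when it moved more than 2-fold with an adjusted p under 0.05, and as different between cell types when it differed more than 4-fold with an adjusted p under 0.01 (limma-voom, two-sided, adjusted over all genes tested). In the SGN fit, 32 of the 46 receptors passed the filter on low counts, and 34 did when HCs and glia were included. The comparisons share libraries and are not independent of each other.

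From E15.5 to P1, 2 of 32 receptors rose and none fell, where 8.26% of all genes were called, 5.08% upward and 3.18% downward. The median log2 change was 0.13 over the receptors and 0.07 over all genes. *Rorb* and *Pgr* were these 2, and each lost its call when some single libraries were left out. From P1 to P8, 3 rose (*Nr1d2*, *Nr3c1*, *Nr3c2*) and 2 fell (*Thra*, *Thrb*), against 7.44% of all genes (4.29% upward and 3.15% downward), with median log2 changes of 0.25 for the receptors and -0.01 for all genes. No receptor was called from P8 to P14, where 0.536% of all genes were (0.251% upward and 0.285% downward), and 3 had an unadjusted p under 0.05. None was called from P14 to P30 either, against 0.0596% of all genes (0.0331% upward and 0.0265% downward), with 1 at an unadjusted p under 0.05. The quasi-likelihood test of edgeR and the test of DESeq2 also called none at these last steps, and quality weights for the libraries gave 1 from P8 to P14.

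Over the whole span from E15.5 to P30, 10 receptors rose and 7 fell, where 34.6% of all genes were called, 18.4% upward and 16.2% downward. The median log2 change was 0.26 for the receptors and -0.01 for all genes. With library totals alone in place of TMM the split became 7 up and 10 down, while the median of all genes moved by -0.48. A test of variation across the 5 ages called 16 of 32 receptors, against 39% of all genes. Between cell types, 4 receptors were higher and 8 lower in SGNs than in HCs, where 26.8% of all genes were called (10.5% higher and 16.2% lower). Against glia, 6 were higher and 9 lower in SGNs, with 24.7% of all genes called (14.3% higher and 10.4% lower). In HCs 4 were higher and 4 lower than in glia, with 24.4% of all genes called (16.2% higher and 8.18% lower). In this order, the median log2 differences of the receptors were -0.92, -0.61 and -0.54, and those of all genes 0.02, 0.22 and 0.14. With library totals alone the first split became 3 higher and 13 lower and the last 8 higher and 4 lower, while the medians of all genes moved by -0.55 and 0.49.

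The estrogen-related receptors are 3 orphan receptors, and all 3 were found in SGNs, each with its own course. *Esrrg* (chr1:187608791-188214885 on GRCm38) was the most abundant receptor gene of the SGNs. Its levels were 54.2, 41.3 and 67.3 RPKM at E15.5, 87.5, 107 and 81.8 at P1, 80.2, 90.6 and 104 at P8, 68.7, 97.3 and 79.3 at P14, and 103, 93.0 and 124 at P30. HCs had 0.533, 0.924 and 0.387 RPKM and glia 6.75, 0.699 and 0.527. Every SGN library lay above every HC and glial library, and the highest glial value was in library 1, which also had the most SGN marker transcripts. *Esrrg* was higher in SGNs than in HCs by 7.14 ± 0.75 on the log2 scale (adjusted p = 6.66e-08) and higher than in glia by 5.61 ± 0.67 (adjusted p = 6.91e-07). Without glia library 1 the latter difference was 7.06. The change between E15.5 and P30 was 0.95 ± 0.19 (adjusted p = 0.000719), under the 2-fold limit. It was called under none of 9 other settings, but in 2 of 6 fits that left out a library (E15.5 library 3 or P30 library 2).

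*Esrrb* (chr12:86361117-86521628), known as a gene of inherited deafness, was near 0 at E15.5 and present in all P1 libraries. It had 0.0220, 0.0160 and 0 RPKM at E15.5, which are 4 counts in all, and 0.161, 0.642 and 1.58 at P1. It then stood at 1.37, 1.90 and 2.33 RPKM at P8, 2.59, 1.96 and 7.36 at P14, and 6.60, 6.11 and 8.63 at P30. The E15.5 libraries lay under all later ones. The step from E15.5 to P1 was not among the calls above. It was called under 5 of 9 other settings and in 1 of 6 fits that left out a library. The pooled level at P30 was 599-fold that at E15.5, with a counting interval of 234 to 2199, and the rise passed the test (adjusted p = 0.000557). HCs had 2 counts in all and glia 10. Over the 15 SGN libraries the pooled level was 507-fold that of HCs (counting interval 140 to 4185) and 64.2-fold that of glia (34.9 to 134). The tested differences of the mean log2 level over the 5 ages were 6.86 and 4.18 (adjusted p = 1.77e-05 and 0.0019). The call against glia was lost without glia library 1 (adjusted p = 0.0258) and without glia library 2 (0.0164). These intervals cover counting error only.

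*Esrra* (chr19:6910977-6921813), the member that is most widely expressed across tissues, rose over the same span. It had 0.761, 0.991 and 2.74 RPKM at E15.5, 0.315, 1.19 and 2.61 at P1, 2.35, 5.41 and 2.15 at P8, 9.97, 10 and 6.87 at P14, and 6.99, 11.5 and 14.3 at P30. The libraries of P14 and P30 lay above those of the 3 earlier ages. The change from E15.5 to P30 was 2.87 ± 0.70 on the log2 scale (adjusted p = 0.00377). It was not called in any comparison between cell types, in which SGNs enter as the mean of the 5 ages. HCs had 1.56, 2.23 and 0.632 RPKM and glia 2.48, 0.137 and 1.48, all under the SGN libraries of P14 and P30. The gene shares 3.74% of its exon bases with *Trmt112* on the other strand.

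*Nr0b2* encodes SHP, a receptor without a DNA-binding domain that represses other receptors, estrogen-related receptors among them. No count was found at E15.5, in HCs or in glia. SGNs had 0.0505, 0 and 0.787 RPKM at P1, 0.163, 1.47 and 0.929 at P8, 3.10, 2.64 and 1.09 at P14, and 1.47, 2.62 and 2.24 at P30. All libraries of P14 and P30 thus held it, at 1.09 RPKM or more. Against a limit of 3 counts per library, the mean at P30 was at least 14.6-fold higher than at E15.5 (adjusted p = 0.00202), and the mean of the SGNs was at least 8.80-fold higher than in HCs and at least 5.32-fold higher than in glia (adjusted p = 0.00102 and 0.00525). Calls against genes at 0 depended on the tool. With edgeR the difference from HCs had an adjusted p of 1.00, and the call against glia was lost with edgeR, with DESeq2 (adjusted p = 0.0106) and without any of the 3 glial libraries (0.0231 to 0.0384).

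**Figure D2:**
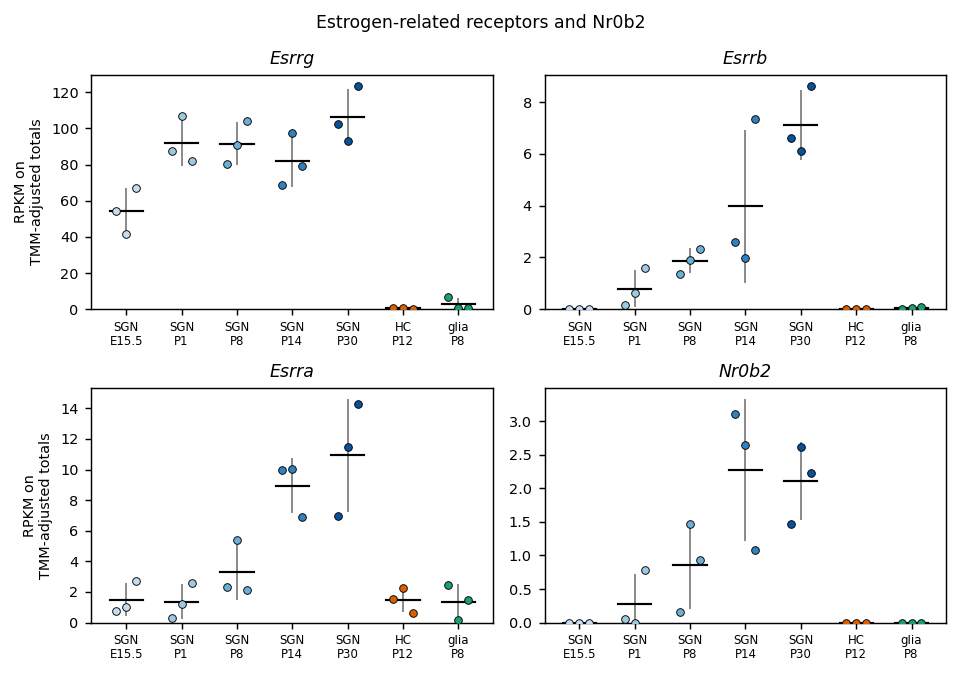
RPKM on TMM-adjusted totals (linear axes from 0) of *Esrrg*, *Esrrb*, *Esrra* and *Nr0b2* in the 7 groups. Points are libraries, horizontal bars the means and vertical lines the SD (n = 3, cut at 0). *Esrrg* lies at 41.3 RPKM or more in SGNs and at 6.75 or less in HCs and glia, and the other genes are highest at P14 or P30.

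The promoters of these receptors are shown because *Esrra*, *Esrrb* and *Nr0b2* all rose between E15.5 and P30. The windows are the 250 bases before the RefSeq start sites on GRCm38.p6, read 5′ to 3′ along the gene, and capitals mark the hexamer AGGTCA or the E-box CACGTG on either strand, the element through which the clock factors act. The windows are chr19:6921809-6922058 (minus strand) for *Esrra*, chr12:86360867-86361116 and chr12:86421394-86421643 (plus strand) for 2 starts of *Esrrb*, and chr4:133553126-133553375 (plus strand) for *Nr0b2*.
Esrra: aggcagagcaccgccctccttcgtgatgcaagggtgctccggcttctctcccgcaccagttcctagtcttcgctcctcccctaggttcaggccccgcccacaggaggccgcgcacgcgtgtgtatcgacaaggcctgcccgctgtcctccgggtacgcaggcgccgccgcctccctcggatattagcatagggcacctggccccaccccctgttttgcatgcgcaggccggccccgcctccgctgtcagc
Esrrb, first start: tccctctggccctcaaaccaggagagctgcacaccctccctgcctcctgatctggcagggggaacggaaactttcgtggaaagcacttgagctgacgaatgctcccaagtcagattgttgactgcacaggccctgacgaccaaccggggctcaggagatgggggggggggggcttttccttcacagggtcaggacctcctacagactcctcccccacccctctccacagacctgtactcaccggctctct
Esrrb, inner start: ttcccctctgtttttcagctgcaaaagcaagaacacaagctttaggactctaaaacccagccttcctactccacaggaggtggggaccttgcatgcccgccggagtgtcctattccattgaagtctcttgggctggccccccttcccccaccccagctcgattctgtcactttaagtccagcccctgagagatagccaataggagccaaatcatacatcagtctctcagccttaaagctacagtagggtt
Nr0b2: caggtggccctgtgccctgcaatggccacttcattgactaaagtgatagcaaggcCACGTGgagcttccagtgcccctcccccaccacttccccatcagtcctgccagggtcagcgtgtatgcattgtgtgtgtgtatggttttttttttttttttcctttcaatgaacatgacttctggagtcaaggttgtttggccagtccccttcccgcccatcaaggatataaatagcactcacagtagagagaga

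The GC content of these windows was 68.4% for *Esrra*, 60.8% and 52% for *Esrrb* and 50% for *Nr0b2*. Neither hexamer was found in the windows of *Esrra* and *Esrrb*, and *Nr0b2* had the E-box 195 bases before its start. Among the RefSeq promoters of 250 bases before to 50 after a start, 16.3% of 32851 held AGGTCA on either strand and 7.15% held CACGTG. Promoters were matched for 42 of the receptors, with 63 windows, of which 12 held AGGTCA and 6 held CACGTG. No window was matched for *Thra*, *Hnf4g*, *Nr3c1* and *Nr5a1*. The longer element TCAAGGTCA, which contains AGGTCA and is bound by estrogen-related receptors, was in none of the 63 and in 0.423% of all windows. AAAGGTCA, bound by the NR4A receptors as single proteins and also containing AGGTCA, was in 2 (*Rxra* and *Rxrg*) and in 1.51% of all. A match is a description of the letters and no evidence of binding.

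The thyroid hormone receptors were the second feature of the young SGNs. *Thra* (chr11:98740638-98769006) encodes the receptor that is prominent in brain, and *Thrb* (chr14:17660261-18038090) the receptor that is needed for hearing. *Thra* had 28.9, 28.5 and 30.1 RPKM at E15.5 and 51.4, 51.0 and 40.8 at P1. It then stood at 19.7, 21.5 and 22.3 at P8, 20.2, 10.6 and 18 at P14, and 14.8, 9.95 and 11.6 at P30. The P1 libraries were above those of all other ages. The fall from P1 to P8 was -1.18 ± 0.19 on the log2 scale (adjusted p = 0.000697), the change from E15.5 to P30 was -1.29 ± 0.23 (adjusted p = 0.000361), and the difference of 0.71 ± 0.19 from E15.5 to P1 stayed under 2-fold. HCs had 9.69, 6.25 and 7.78 RPKM, under all SGN libraries (log2 difference 1.55 ± 0.33, adjusted p = 0.000436, under the 4-fold limit), and glia were spread over 13.3, 29.0 and 4.26. *Thra* shares 5.70% of its exon bases with *Nr1d1* on the other strand, so their reads cannot be fully told apart without strand.

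*Thrb* was lower than *Thra* in each SGN library. It had 3.47, 5.51 and 5.64 RPKM at E15.5, 11.4, 7.05 and 5.94 at P1, 4.81, 2.55 and 3.33 at P8, 2.32, 2.81 and 1.30 at P14, and 3.48, 3.56 and 1.69 at P30. Like *Thra* it was highest at P1. The fall from P1 to P8 was -1.21 ± 0.32 (adjusted p = 0.0223), a call that was lost without P1 library 1 (-0.91, adjusted p = 0.131), P8 library 2 (-0.998, 0.114) or P8 library 3 (-1.21, 0.0699), and with edgeR (adjusted p = 0.0868). HCs had 3.81, 3.31 and 2.86 RPKM, within the range of SGNs, and glia 1.91, 0.281 and 0.546. SGNs were above glia by 2.35 ± 0.63 (adjusted p = 0.00412), and this call was lost without glia library 2 (1.73, adjusted p = 0.037) or glia library 3 (2.16, 0.0237).

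Of 7 genes that carry or convert thyroid hormone, 4 were tested across SGN ages. *Dio3*, the deiodinase that inactivates the hormone, had 3.35, 2.48 and 1.67 RPKM at E15.5 and no count in any other library, a fall of at least 45.9-fold by P1 and at least 35.7-fold by P30 against 3 counts per library (adjusted p = 0.000162 and 1.4e-05). *Crym*, which encodes a protein that binds the hormone in the cytosol, rose from E15.5 to P1 by 2.33 ± 0.48 (adjusted p = 0.00672) and stood at 13.3, 12.4 and 10.1 RPKM at P1, above all other libraries. Of 5 known targets of the thyroid hormone receptors 4 were tested, of which 2 rose and 1 fell between E15.5 and P30. Of all genes tested, 18.4% were called upward and 16.2% downward over this span.

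Of the 6 receptors for retinoic acid and retinoid X receptors, *Rara*, *Rarb*, *Rxra* and *Rxrg* were called in at least 1 comparison between SGNs and another cell type, and *Rarg* and *Rxrb* in none. *Rara* (chr11:98927818-98974942), the receptor of widest expression, fell in SGNs from 14.8, 9.54 and 12.4 RPKM at E15.5 to 3.51, 2.34 and 3.06 at P30, with values of 3.32 to 10.4 between. The change was -2.01 ± 0.38 on the log2 scale (adjusted p = 0.000546). HCs had 16.3, 14.1 and 16.1 RPKM and glia 23.5, 40.8 and 26.3, and the glia were above all SGN libraries. SGNs were lower than glia by -2.34 ± 0.22 (adjusted p = 2.28e-08). The difference from HCs was -1.45 ± 0.23 (adjusted p = 1.7e-05), under 4-fold.

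*Rarb* (chr14:16430839-16819156) is induced by retinoic acid itself through an element in its promoter. The 15 SGN libraries ran from 0.0967 to 1.53 RPKM, with a median of 0.562, against 19.0, 13.8 and 16.0 in HCs and 4.29, 10.2 and 3.71 in glia. The 3 cell types did not overlap. The log2 differences of SGNs were -4.96 ± 0.35 from HCs (adjusted p = 1.38e-10) and -3.38 ± 0.45 from glia (adjusted p = 2.92e-06). *Top2b* on the other strand shares exon bases with *Rarb*, which shares 38.4% of its own in all, so part of these counts could belong to it.

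Among the RXRs, the common partners of many receptors, *Rxra* and *Rxrg* differed in opposite directions between SGNs and HCs. *Rxra* (chr2:27676440-27762957) had 29.6, 32.4 and 34.4 RPKM in HCs and 14.7, 43.5 and 32.9 in glia, and in SGNs it ran from 3.12 to 11.8 with a median of 7.37. SGNs did not overlap with either. They were lower than HCs by -2.14 ± 0.23 (adjusted p = 1.16e-07) and lower than glia by -1.81 ± 0.27 (adjusted p = 1.18e-05), the latter under 4-fold but called with edgeR (-2.05) and DESeq2 (-2.16). *Rxrg* (chr1:167598384-167639623), an RXR of restricted expression, had 10, 6.70 and 6.78 RPKM at E15.5 and 1.92, 3.08 and 2.79 at P30. It fell by -1.65 ± 0.49 (adjusted p = 0.0124), a call that was lost without P30 library 1 (-1.40, adjusted p = 0.0771). HCs had 0.180, 0.168 and 0.855 RPKM, under every SGN library, and SGNs were higher by 3.53 ± 0.95 (adjusted p = 0.0036). That call was lost without HC library 1 (3.23, adjusted p = 0.0239) or HC library 2 (3.11, 0.033). It was also lost with P8 and P14 SGNs alone (3.00, adjusted p = 0.0165) and with library totals in place of TMM (2.98, 0.0122). Glia had 3.30, 0.113 and 6.54 RPKM, a wide spread. *Rxrb* was called nowhere, with 2.59 to 6.88 RPKM in SGNs, 3.23, 5.53 and 3.57 in HCs, and 9.35, 2.65 and 13.9 in glia.

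Genes that make and handle retinoids differed as well. Of 13, 9 were tested. Of these, 1 was higher and 4 lower in SGNs than in HCs, and 1 higher and 3 lower than in glia. That is 55.6% and 44.4% of those tested, against 26.8% and 24.7% of all genes. *Dhrs3*, a reductase that lowers retinaldehyde, and *Stra6*, the importer of retinol, were among those lower than in HCs, by -6.17 ± 0.55 and -4.53 ± 0.31 (adjusted p = 5.79e-09 and 8.34e-11).

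Among the 4 receptors that act on the circadian clock, *Nr1d2*, *Rora* and *Rorb* were called upward from E15.5 to P30, the last of them not in every fit, and *Nr1d1* was not called between SGN ages. *Nr1d2* (chr14:18204054-18239127) encodes REV-ERBβ, a heme-binding repressor of clock genes. It had 4.44, 1.90 and 1.35 RPKM at E15.5, 3.83, 6.74 and 5.73 at P1, 12.8, 21.3 and 20.4 at P8, 18.6, 34.0 and 22.6 at P14, and 18.9, 27.7 and 30.4 at P30. The libraries from P8 on lay above all earlier ones. The rise was 1.77 ± 0.33 from P1 to P8 (adjusted p = 0.00242) and 3.50 ± 0.48 from E15.5 to P30 (adjusted p = 3e-05). HCs had 18, 17.2 and 16.0 RPKM and glia 23.9, 19.0 and 18.4. Its RefSeq promoter at chr14:18239107-18239356 (minus strand, GC content 63.6%) held 1 AGGTCA, marked in capitals and 77 bases before the start.
Nr1d2: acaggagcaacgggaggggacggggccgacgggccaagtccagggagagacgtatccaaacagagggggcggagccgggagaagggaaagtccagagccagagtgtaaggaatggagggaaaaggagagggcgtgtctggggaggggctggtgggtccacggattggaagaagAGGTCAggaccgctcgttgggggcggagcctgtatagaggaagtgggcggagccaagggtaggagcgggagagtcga

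*Nr1d1*, the related repressor REV-ERBα, ran from 3.02 to 16.7 RPKM in SGNs, with 12, 13 and 15.48 in HCs and 42.2, 24.4 and 12.9 in glia. SGNs were lower than glia by -2.19 ± 0.35 (adjusted p = 3.14e-05), and without glia library 1 the difference was -1.65, under 4-fold. The RORs activate the elements that REV-ERBs repress. *Rora* (chr9:68653786-69388246) went from 2.13, 1.54 and 1.29 RPKM at E15.5 to 5.05, 6.97 and 6.81 at P30 (1.91 ± 0.36, adjusted p = 0.000496). HCs had 16.4, 16.4 and 13.0 RPKM, above all SGN libraries, with a log2 difference of -1.98 ± 0.19 (adjusted p = 2.15e-08) just under 4-fold. It was called under 4 of 10 other settings and in 11 of 18 fits that left out a library.

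*Rorb* (chr19:18930605-19111196) is known from sensory systems such as the retina. HCs had 32.0, 31.7 and 27.8 RPKM, glia 6.06, 3.99 and 5.07, and SGNs from 0.385 to 9.51 with a median of 3.44. HCs stood above the other cell types, by 3.38 ± 0.23 against SGNs and 2.57 ± 0.37 against glia on the log2 scale (adjusted p = 1.02e-10 and 1.34e-05). Within SGNs it had 0.385, 0.756 and 0.908 RPKM at E15.5 and 2.35, 8.56 and 3.44 at P1. The rise of 2.56 ± 0.75 (adjusted p = 0.0386) was lost without any E15.5 library and without P1 library 2 or 3 (log2 changes of 2.01 to 2.81, adjusted p from 0.0602 to 0.0903). By P30, at 2.98, 3.46 and 4.53 RPKM, it was up by 2.36 ± 0.77 (adjusted p = 0.0219), which was lost without any E15.5 library or without P30 library 3 (2.05 to 2.60, adjusted p from 0.0502 to 0.0583). Of 7 clock genes that RORs and REV-ERBs act on, 1 was called between E15.5 and P30, downward. Of all genes tested, 34.6% were called over this span, 16.2% of them downward calls.

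Among the steroid receptors, *Nr3c1* and *Nr3c2* were called upward from P1 to P8 and *Pgr* from E15.5 to P1, and neither estrogen receptor was called between SGN ages (*Esr2* did not pass the filter there). *Nr3c2* (chr8:76899442-77245012) encodes the mineralocorticoid receptor, which also binds glucocorticoids. It had 0.227, 0.202 and 0.202 RPKM at E15.5 and 0.243, 0.434 and 0.170 at P1, and then 4.45, 2.53 and 3.10 at P8, 6.91, 6.19 and 6.79 at P14, and 6.55, 8.74 and 7.69 at P30. No library before P8 reached 1 RPKM and none from P8 on was below 2.53. The rise from P1 to P8 was 3.64 ± 0.53 (adjusted p = 0.000304) and that from E15.5 to P30 5.10 ± 0.61 (adjusted p = 7.18e-06). HCs had 4.72, 4.46 and 4.74 RPKM and glia 2.79, 2.25 and 3.05, and no call was made between cell types.

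*Nr3c1* (chr18:39410545-39519421), the glucocorticoid receptor, peaked at P8. It had 0.449, 0.900 and 0.176 RPKM at E15.5, 1.72, 0.747 and 1.10 at P1, 4.70, 5.26 and 3.69 at P8, 3.81, 2.75 and 2.03 at P14, and 2.05, 2.48 and 0.899 at P30. The rise from P1 to P8 was 1.95 ± 0.42 (adjusted p = 0.00604). The rise from E15.5 to P30 of 1.99 ± 0.69 (adjusted p = 0.0299) was lost without E15.5 library 1 (2.03, adjusted p = 0.0608), E15.5 library 3 (1.30, 0.151), P30 library 1 (1.80, 0.0838) or P30 library 2 (1.77, 0.0723). HCs had 5.95, 5.70 and 5.02 RPKM, and glia had 11, 11.2 and 16.2, above all SGNs (-2.94 ± 0.26, adjusted p = 9.55e-09). The P8 SGNs, where *Nr3c1* was highest, also held the most Schwann cell myelin transcripts, and the part of these in the P8 level was not tested. With P8 SGNs alone the difference from glia was -1.44, under 4-fold.

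*Pgr* (chr9:8899833-8968611), the progesterone receptor, had 0.0780, 0.363 and 0.520 RPKM at E15.5, 1.02, 1.07 and 1.34 at P1, 1.62, 2.17 and 1.86 at P8, 4.06, 3.44 and 3.24 at P14, and 3.03, 3.46 and 3.77 at P30. Neighboring ages did not overlap until P14. It rose by 3.61 ± 0.56 from E15.5 to P30 (adjusted p = 9.71e-05). The first step, 2.06 ± 0.59 from E15.5 to P1 (adjusted p = 0.0337), was lost without E15.5 library 1 (1.36, adjusted p = 0.0891) or any P1 library (1.92 to 2.11, adjusted p from 0.0525 to 0.071). HCs had 0.774, 0.666 and 0.432 RPKM and glia 0.0362, 0.589 and 0.0225, and SGNs were above glia by 4.09 ± 0.77 (adjusted p = 0.000163).

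The estrogen receptors showed another distribution. *Esr1* (chr10:4611593-5005614) had 1.40, 1.17 and 1.31 RPKM in HCs, and SGNs ran from 0.0142 to 0.481 with a median of 0.145. *Esr2* (chr12:76120419-76177259) had 2.79, 5.50 and 4.55 RPKM in HCs, and SGNs ran from 0 to 0.920 with a median of 0.358. Both were thus higher in every HC library than in any SGN library, at log2 differences of 3.59 ± 0.46 and 4.25 ± 0.55 (adjusted p = 1.19e-06 and 1.3e-06). In glia *Esr1* had 4 counts and *Esr2* 6 over the 3 libraries. The pooled HC levels were 181-fold (counting interval 70.4 to 665) and 103-fold (47.1 to 281) those of glia, with adjusted p of 7.49e-06 and 4.42e-05. SGNs were also above glia for *Esr1*, 24.8-fold in pooled counts with a counting interval of 9.66 to 91.4. The tested difference of the mean log2 level over the 5 ages was 3.71 (adjusted p = 0.00396). This call was lost without any of the glial libraries (adjusted p from 0.0123 to 0.0457). Of 6 genes that convert steroids or vitamin D, 3 were tested between cell types, and all 3 were lower in SGNs than in HCs (*Srd5a1*, *Hsd11b1* and *Hsd11b2*, named after their values were seen). Of all genes tested, 16.2% were called lower in SGNs than in HCs.

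**Figure D3:**
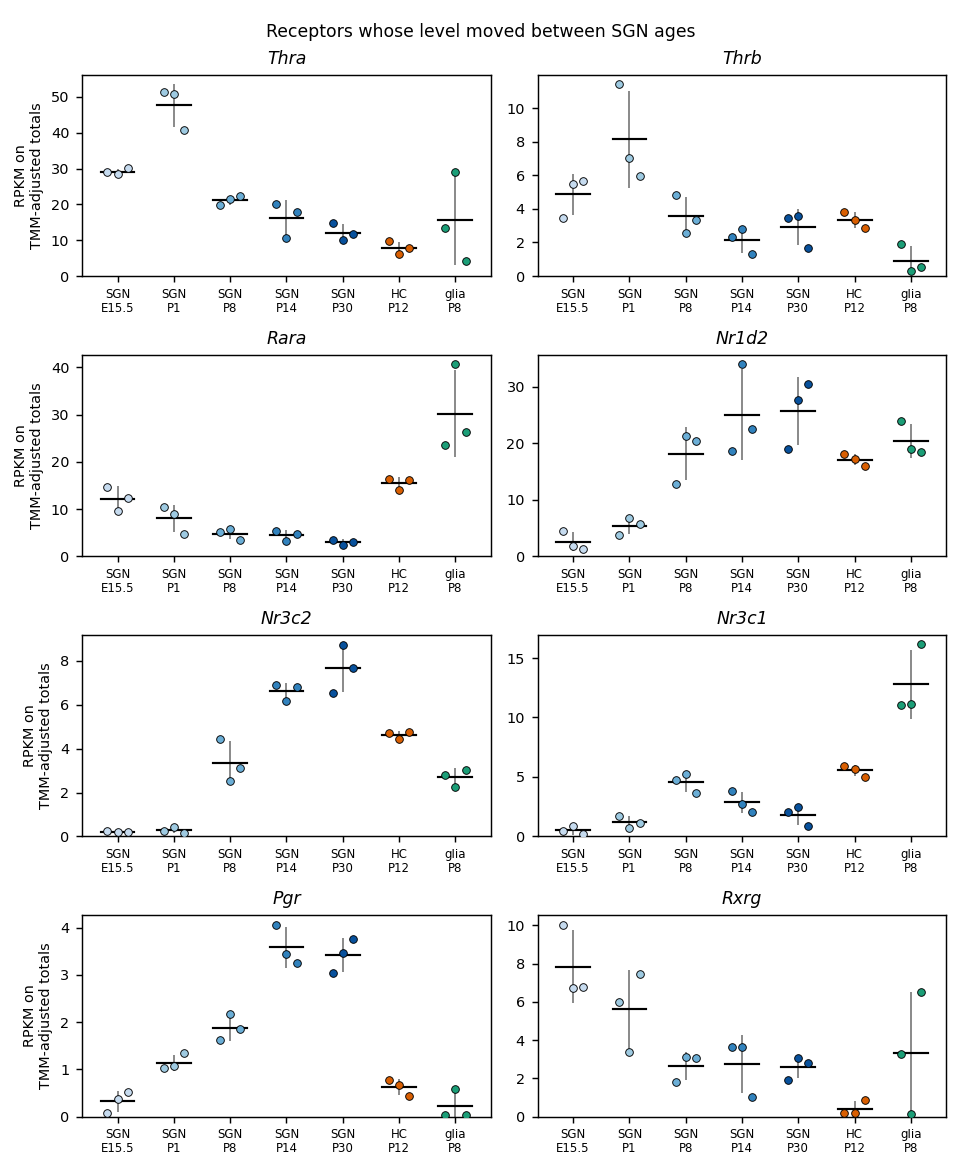
RPKM on TMM-adjusted totals (linear axes from 0) of 8 receptors called between SGN ages, in the 7 groups. Points are libraries, horizontal bars the means and vertical lines the SD (n = 3, cut at 0). Within SGNs, *Thra* and *Thrb* are highest at P1, *Rara* and *Rxrg* at E15.5 and *Nr3c1* at P8. There, *Nr1d2*, *Nr3c2* and *Pgr* are higher from P8 on than at E15.5. *Rara* has its highest group mean in glia.

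The NR4A receptors act without ligand and are themselves immediate early genes, switched on within minutes by activity or stress. *Nr4a1* (chr15:101254269-101274795) had 514, 437 and 349 RPKM in glia and 30.1, 25.5 and 32.1 in HCs. In SGNs it had 15.9, 24.9 and 18.9 at E15.5, 28.7, 9.43 and 8.56 at P1, 66.1, 8.84 and 14.7 at P8, 41.5, 5.96 and 5.58 at P14, and 6.21, 1.02 and 0.392 at P30. Library 1 was the highest at each age after E15.5. Glia were above SGNs by 5.42 ± 0.38 and above HCs by 3.92 ± 0.48 on the log2 scale (adjusted p = 3.06e-10 and 1.85e-06). The change from E15.5 to P30 was -3.64 ± 1.52 and did not pass (adjusted p = 0.0639), though the 2 groups did not overlap. It passed under 7 of 9 other settings, among them the replicate block (-3.01, adjusted p = 0.0117), edgeR (-2.98, 0.0317) and DESeq2 (-3.04, 0.013), and in none of the 6 fits that left out a library (0.0753 to 0.161).

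*Nr4a2* (chr2:57106830-57124003) had 24.1, 24.2 and 52.8 RPKM in glia, 2.30, 1.61 and 2.94 in HCs, 3.48, 7.47 and 1.93 at E15.5 and 0.573, 0.0541 and 0.212 at P30. It fell by -4.13 ± 1.18 in SGNs (adjusted p = 0.0107). *Nr4a3* (chr4:48045153-48086447) had 5.99, 7.37 and 5.63 RPKM in glia, 0.789, 1.09 and 0.529 in HCs, 2.39, 3.93 and 1.07 at E15.5 and 0.611, 0.275 and 0.414 at P30. Its fall of -2.34 ± 0.76 (adjusted p = 0.021) was lost without E15.5 library 2 (-1.86, adjusted p = 0.0646), P30 library 2 (-2.09, 0.0664) or P30 library 3 (-2.32, 0.0608). Both were higher in glia than in SGNs, by 4.87 ± 0.41 and 3.00 ± 0.37 (adjusted p = 5.3e-09 and 1.01e-06), and higher than in HCs, by 3.76 ± 0.61 and 3.03 ± 0.58 (4.88e-05 and 0.00029).

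Other immediate early genes were compared by library. A list of 9 (*Fos*, *Fosb*, *Jun*, *Junb*, *Egr1*, *Ier2*, *Atf3*, *Arc* and *Npas4*), added after the values were seen, summed to 1438 to 1847 RPKM in glia, 594 to 600 in HCs, 232 to 294 at E15.5 and 37.2 to 156 at P30. In library 1 it summed to 338 at P1, 580 at P8 and 488 at P14, against at most 116, 101 and 98.7 in the other libraries of those ages. Single genes of the list differed from its sum. *Npas4*, an early gene of neuronal activity, had means of 6.02 RPKM at E15.5 and 6.39 at P1, against 0.128 in HCs and 0.0734 in glia, and *Arc* had 0.693 at E15.5 and 1.55 at P30. SGNs and glia were both picked by hand, and for HCs the labels and the study's methods differ. The part of cell isolation in these levels was not tested.

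**Figure D4:**
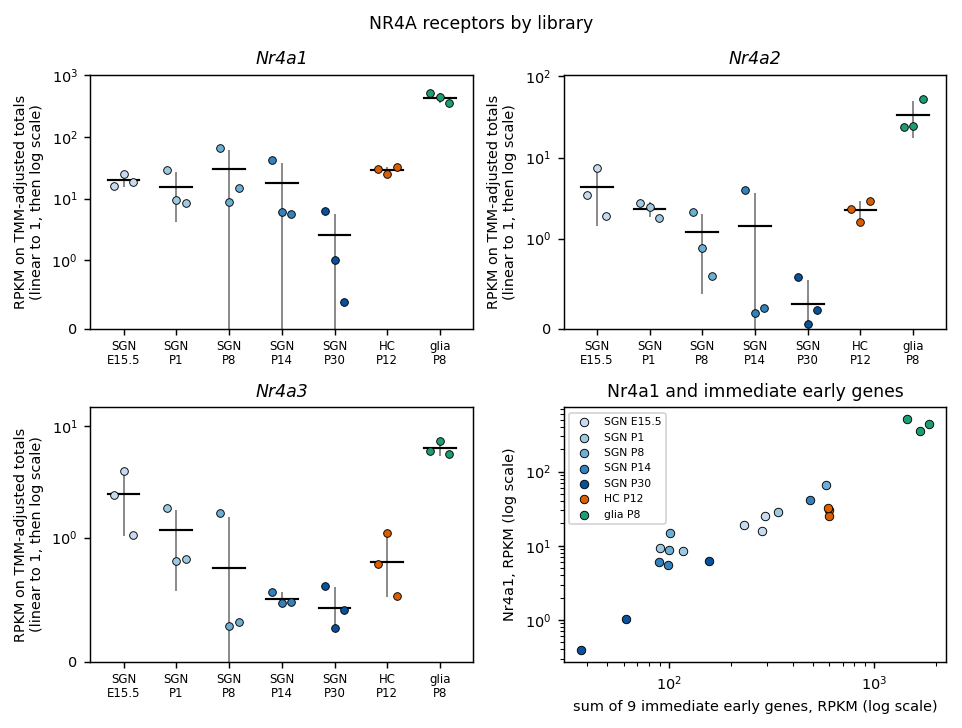
*Nr4a1*, *Nr4a2* and *Nr4a3* in the 7 groups (RPKM on TMM-adjusted totals, axis linear to 1 and logarithmic above) with means and SD (n = 3, cut at 0), and *Nr4a1* against the sum of 9 immediate early genes in each library (both axes logarithmic). The glial libraries are highest for all 3 receptors, and at P1, P8, P14 and P30 library 1 is the highest of its group on both axes of the last panel.

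The COUP transcription factors, orphan receptors that guide cell fate in neural and other tissues, were low in SGNs. *Nr2f1* (chr13:78188973-78199757) had 11.5, 13.4 and 11.7 RPKM in glia, 4.92, 3.51 and 3.38 in HCs and 0.119 to 2.20 in SGNs. The 3 cell types did not overlap, and SGNs were lower by -4.19 ± 0.35 than glia and by -2.52 ± 0.40 than HCs (adjusted p = 3.68e-09 and 1.68e-05). Within SGNs it had 2.17, 2.20 and 0.712 RPKM at E15.5 and 0.581, 0.119 and 0.190 at P30, a change of -2.51 ± 0.93 (adjusted p = 0.0392). That call was lost without any P30 library and without E15.5 library 1 or 2 (-3.27 to -2.05, adjusted p from 0.0515 to 0.122). *Nr2f2* (chr7:70351944-70366735) had 28.3, 30.3 and 35.1 RPKM in glia, 2.25, 1.99 and 2.23 in HCs and 0.256 to 3.56 in SGNs. Glia were higher than SGNs by 5.00 ± 0.33 and higher than HCs by 3.84 ± 0.48 (adjusted p = 1.27e-10 and 2.48e-06). *Nr2f6*, which shares 54.4% of its exon bases with *Ocel1* on the other strand, stayed between 0.121 and 1.01 RPKM in all libraries and was not called.

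*Nr6a1* (chr2:38723370-38927688), an orphan receptor of germ cells and early embryos, had 7.66, 7.31 and 6.75 RPKM in HCs and 0.455 to 2.70 in SGNs with a median of 1.32, which did not overlap. SGNs were lower by -2.58 ± 0.35 (adjusted p = 2.49e-06). Glia had 6.44, 1.56 and 0.124 RPKM, and the call for HCs over glia (2.33 ± 0.67, adjusted p = 0.00761) was lost without any HC library (adjusted p from 0.0139 to 0.0164) and without glia library 2 (0.0217) or library 3 (0.996, 0.0506), and with edgeR (adjusted p = 0.13) and DESeq2 (0.0432). *Nr1i2*, the xenobiotic sensor PXR, had 5.22, 3.49 and 0.776 RPKM at E15.5 and 0.130, 0.408 and 0.0422 at P30. It fell by -4.04 ± 1.29 (adjusted p = 0.0198), a call lost without P30 library 1 (-4.00, adjusted p = 0.0693) or P30 library 3 (-3.40, 0.072). HCs had 1.46, 1.86 and 0.942 RPKM, and SGNs, with a median of 0.188, were lower by -2.86 ± 0.88 (adjusted p = 0.0095), which was lost in 12 of the 18 fits that left out 1 library (-3.13 to -2.60, adjusted p from 0.01 to 0.061). The libraries left out in these 12 fits were HC libraries 1, 2 and 3, E15.5 library 3, P8 libraries 2 and 3, and libraries 1 and 3 of P1, P14 and P30. It was also lost with edgeR (adjusted p = 0.0775) and DESeq2 (0.0571). *Nr1h2*, the oxysterol receptor LXRβ, had 12.9, 3.18 and 0.937 RPKM at E15.5 and 8.41, 7.13 and 10.6 at P30, which overlap. Its call upward (1.47 ± 0.57, adjusted p = 0.0484) was lost under all 9 other settings tried, and without E15.5 library 2 or 3 or any P30 library (0.52 to 1.56, adjusted p from 0.0613 to 0.409).

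**Figure D5:**
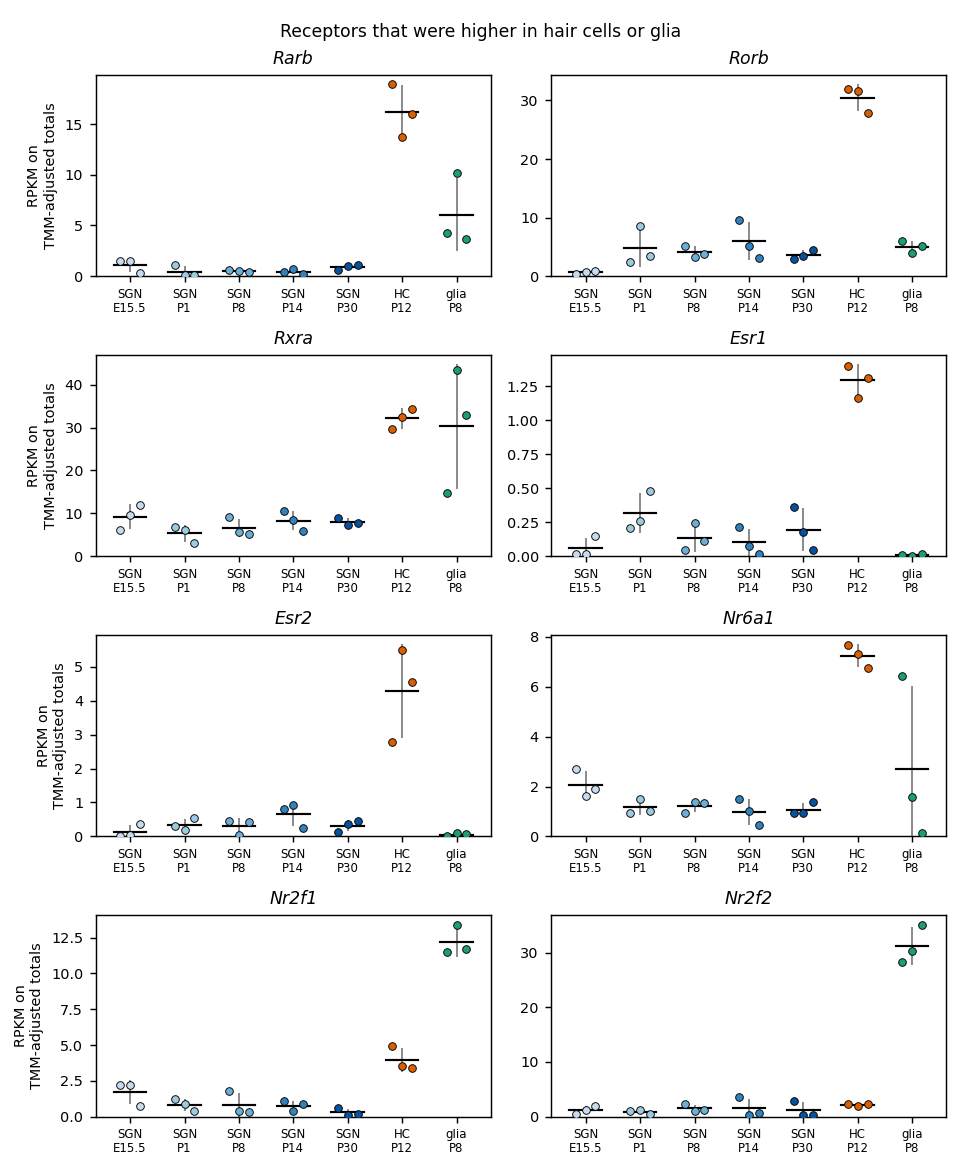
RPKM on TMM-adjusted totals (linear axes from 0) of 8 receptors in the 7 groups. Points are libraries, horizontal bars the means and vertical lines the SD (n = 3, cut at 0). *Rarb*, *Rorb*, *Esr1*, *Esr2* and *Nr6a1* are highest in HCs, *Nr2f1* and *Nr2f2* in glia, and *Rxra* is high in both.

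The other receptors were not called in the comparisons above, and 12 of the 46 receptors did not pass the filter on low counts in either fit. Under other settings *Vdr* was called lower in SGNs than in HCs (quality weights, -2.88, adjusted p = 0.00424), and *Nr1i3*, the receptor CAR, and *Nr1h3*, the oxysterol receptor LXRα, were called upward from E15.5 to P30 with no filter (4.24 and 5.37, adjusted p = 0.00492 and 0.00434). *Nr1i3*, of whose exon bases 74.9% are shared with *Tomm40l*, was then also called higher in SGNs than in HCs (2.35, 0.00123), and *Nr1h3* also upward without P30 library 3. The fatty acid sensor *Ppard* ran from 1.35 to 6.48 RPKM in SGNs, with 3.09, 3.63 and 2.75 in HCs and 4.22, 1.5 and 11.7 in glia. The testicular receptors *Nr2c1* and *Nr2c2* ran from 1.06 to 3.57 and from 4.35 to 7.21 RPKM in SGNs, with 2.62, 3.03 and 3.01 and 3.69, 4.88 and 5.21 in HCs, and 1.82, 6.78 and 2.26 and 4.98, 1.76 and 5.48 in glia. *Rarg*, *Vdr* (the vitamin D receptor) and *Nr1h3* had single libraries at 4.43, 4.40 and 2.42 RPKM, at E15.5, in glia and at P14 respectively, with group means of 1.56, 1.51 and 0.898 at most. *Ppara*, *Pparg*, *Nr1h4*, *Nr1i3*, *Hnf4a*, *Hnf4g*, *Nr2e1*, *Nr2e3*, *Nr5a1* and *Nr5a2* stayed under 1 RPKM as a mean in every group.

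Coregulators and target genes were read as fixed lists, chosen with earlier results of these data known. All 25 coregulators were tested. From E15.5 to P1 1 rose and 1 fell, from P1 to P8 1 fell, and between the later neighboring ages none was called, with 0 and 1 at an unadjusted p under 0.05. Against HCs 3 were higher in SGNs, and against glia 2 were higher and 1 lower. In HCs 1 was higher and 1 lower than in glia. Between cell types these are 12%, 12% and 8%, against 26.8%, 24.7% and 24.4% of all genes. From E15.5 to P30, 5 rose and 3 fell, with a median log2 change of -0.60, so that 32% were called where 34.6% of all genes were. The largest was that of *Ppargc1a*, which encodes PGC-1α, the partner of the estrogen-related receptors. It had 3.28, 5.02 and 6.05 RPKM at E15.5, 32.5, 51.4 and 39.2 at P1, and 74.4, 70.4 and 78.0 at P30. The step to P1 was 3.06 ± 0.27 (adjusted p = 1.33e-05) and the whole span 3.92 ± 0.27 (adjusted p = 2.61e-08). HCs had 3.14, 2.93 and 3.21 RPKM, and SGNs were higher by 3.51 ± 0.35 (adjusted p = 3.15e-08), while glia had 16.3, 11.8 and 6.09. The ligand-dependent corepressor *Lcor* fell from 23.5, 19.0 and 23.1 to 3.70, 3.74 and 4.66 RPKM (-2.49 ± 0.24, adjusted p = 7.27e-07), and the coactivator *Ncoa4* rose by 1.83 ± 0.30 (adjusted p = 0.000159).

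The 26 genes that make, carry or clear ligands were tested for 14 in SGNs and 18 across cell types. From E15.5 to P30 none rose and 4 fell, with a median log2 change of -1.86. That is 28.6% of those tested, where 34.6% of all genes were called (16.2% downward). Against HCs 1 was higher and 8 lower in SGNs, and against glia 1 was higher and 4 lower. In HCs 6 were higher and 1 lower than in glia. In this order, 50%, 27.8% and 38.9% of those tested were called, against 26.8%, 24.7% and 24.4% of all genes.

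Of 44 target genes known for 7 groups of receptors, 40 were tested in SGNs, and from E15.5 to P30 14 rose and 6 fell, with a median log2 change of 0.09. That is 50% of those tested, and of all genes 34.6% were called, 18.4% upward and 16.2% downward. The list for estrogen-related receptors holds 9 genes of mitochondrial metabolism, such as *Atp5b*, *Cycs* and *Idh3a*, of which 6 rose and none fell. Among 6 glucocorticoid targets 3 rose and 2 fell, with *Zbtb16* up by 5.47 ± 1.06 (adjusted p = 0.000683). Of 6 retinoic acid targets 5 were tested, of which 2 fell from E15.5 to P30 and 3 were lower in SGNs than in HCs. *Rarb* is both a member and a target in that list, and several genes, among them *Dio3*, *Dhrs3* and *Stra6*, are on the lists of targets and of ligand handling alike. Of 5 LXR targets 2 rose and none fell, and of 7 PPAR targets 5 were tested and 1 rose. Across cell types 42 targets were tested. Of these, 9 were higher and 9 lower in SGNs than in HCs, and 5 higher and 12 lower than in glia. In HCs 3 were higher and 5 lower than in glia. In this order, 42.9%, 40.5% and 19% of those tested were called, against 26.8%, 24.7% and 24.4% of all genes.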

How the data were processed

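Alignment to mm10 was done by the authors with STAR (2.4.0i in the submitters' processing notes), who counted them on GENCODE vM15 genes with featureCounts and deposited the raw counts beside a gene length. The strand setting is not given in the sources used here. Gene symbols (52403 matched) and coordinates were read from the GENCODE M21 annotation of GRCm38. The 46 members and the lists of coregulators, ligand-handling genes, targets and markers were chosen with earlier results of these data known. RPKM used TMM factors over the 21 libraries. Tests used voom and eBayes from limma 3.58.1 on TMM-normalized counts (edgeR 4.0.16, R 4.3.3) with group means, Benjamini-Hochberg adjustment and a low-count filter (CPM above 1 in each replicate of some group), which left 15113 genes in the 15 SGN libraries and 17531 genes in all 21. SGNs entered the comparisons with HCs and glia as the mean of their 5 ages. Fitted changes of genes near 0 depend on a prior count, so a bound against 3 counts per library (0.0805 to 0.289 CPM) or a ratio of pooled counts with an exact 95% interval is given. These limits cover counting error only. Values by library are given for receptors called in a comparison or with a group mean of at least 10 TPM, and up to 3 called genes per other list. Alternatives were edgeR, DESeq2 1.42.0, quality weights, other scalings, no filter, a replicate block, other SGN ages and leaving out libraries. The code was tested on simulated data. Some genes of these lists are not reported here.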

Additional observations from a re-analysis of the deposited data

How the results depend on the processing

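Of the 75 calls of a receptor in a comparison, 52 held in every alternative setting, 55 in every fit that left out 1 library and 50 in both. No call in a comparison with a direction was reversed. The 16 calls across the 5 ages have no direction and could not be reversed. The count from E15.5 to P1 (2 receptors) became 4 with edgeR, 5 with DESeq2, 0 with quality weights, 1 with library totals alone and 5 with the replicate block, and the count from P8 to P14 became 1 with quality weights. Leaving out 1 library gave 0 to 2 receptors from E15.5 to P1, 4 to 6 from P1 to P8, 0 from P8 to P14 and from P14 to P30, 12 to 15 from E15.5 to P30, 14 to 16 across the 5 ages, 10 to 13 for SGNs against HCs, 11 to 15 for SGNs against glia and 7 to 9 for HCs against glia. Beside the calls given above as lost, quality weights ended those of *Rorb* and *Nr3c1* from E15.5 to P30, of *Thrb*, *Esr1*, *Esrrb* and *Pgr* between SGNs and glia and of *Esr2* and *Nr6a1* between HCs and glia, and P8 SGNs alone ended those of *Thrb*, *Esr1* and *Nr1d1* between SGNs and glia. The cause of these shifts was not tested. Same-numbered libraries deviated together at every number in 1 of 21 pairs of groups, P8 and P30 SGNs (r of 0.378, 0.172 and 0.146), which are compared only within the test over the 5 ages. In the other 20 pairs of groups at least 1 number had r of 0.1 or less (P14 and P30 had r of 0.37, 0.22 and 0.08), so the numbers were not taken as pairs. Libraries 1 taken alone did deviate together in every pair of the P1, P8, P14 and P30 SGNs (r of 0.249 to 0.378). Between P14 and P30, 5 of 6 libraries correlated best with their own number. The main fit has no term for this link, and the replicate block has. The replicate block gave 18 receptors in the test over the 5 ages, against 16, and beside that from E15.5 to P1 it moved no count by more than 1.5 times. With it, *Esrrb*, *Nr1d2* and *Nr1i2* were also called from E15.5 to P1 (adjusted p = 0.0198, 0.0256 and 0.0217), *Nr2f1* and *Nr4a1* across the 5 ages, *Nr4a1* from E15.5 to P30 and *Thrb* between HCs and glia (0.00779), and *Nr1h2* from E15.5 to P30 and *Nr6a1* between HCs and glia were lost. With quality weights, SGNs against glia gave 1 higher and 9 lower, and without P14 and glia libraries 1, an alternative chosen after seeing the data, 3 higher and 9 lower. Depth limits the receptors near 0, for which 3 counts are the smallest level that could be told from none.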
